A study of Mus musculus with 6 samples.

Results

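The respiratory chain and ATP synthase of mouse mitochondria were followed here through the transcripts of their subunits in whole adrenal glands. Members were the protein-coding genes whose symbols begin with mt-Nd, mt-Co, mt-Cytb, mt-Atp, Ndufa, Ndufb, Ndufc, Ndufs, Ndufv, Uqcr, Cox4 to Cox8 or Atp5, together with Sdha, Sdhb, Sdhc, Sdhd and Cyc1. Of 54532 gene identifiers in the deposited table, 121 matched these names, and 8 Ndufaf assembly factors and 13 identifiers that are not protein-coding were left out. The remaining 100 identifiers carry 99 symbols, because Atp5o has 2 identifiers. Mitochondrial DNA encodes 13 of them, and the nuclear genome encodes 87. The mitochondrial ones comprise 7 of complex I, 1 of complex III, 3 of complex IV and 2 of complex V, and the nuclear ones 36, 4, 9, 20 and 18 of complexes I, II, III, IV and V. Of the 100, 96 passed the filter on low counts and were tested, among them all 13 mitochondrial members. The 4 untested members were Cox6a2, with 2 to 10 counts per library, and Cox7b2, Cox8c and the second Atp5o identifier, with 0 counts in every library. A count of 0 allows up to 0.161 to 0.182 CPM of the library total, counting error only.

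The series compared adrenal glands of VEGF/LysM mice (3 samples) with those of WT mice (3 samples) by bulk RNA sequencing, to learn how VEGF-A made by macrophages acts on the gland. The labels give these 2 group names and the tissue. They do not describe the allele, its driver, the strain, the sex or the age, and do not say whether replicates came from separate animals, so a p here reflects the scatter among these samples, part of which can be technical.

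In the inner mitochondrial membrane, complex I takes electrons from NADH and complex II takes them from succinate, and complexes III and IV hand them on to oxygen. Complexes I, III and IV pump protons, and complex V, the ATP synthase, uses the proton gradient to make ATP. Every complex except complex II is built from subunits of both genomes, so transcripts from mitochondria and from the nucleus have to meet in the same assembly. In the adrenal cortex the same mitochondria also carry steps of steroid synthesis, which draw electrons from NADPH through a separate short chain.

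Library totals ran from 16476879 to 18671950 counts, and 22230 to 23491 genes had at least 1 count. The 10 adrenal cortex markers were detected in every library, at 47485 to 58084 CPM of the library total in VEGF/LysM and 24418 to 54266 CPM in WT. WT replicate 3 stood apart: 24 hepatocyte genes took 0.0304%, 0.0567% and 0.126% of counts in VEGF/LysM and 0.0542%, 0.0451% and 8.26% in WT. Of these 24 genes, 13 had counts in all 6 libraries. TMM scaling, which sets libraries to a common level by genes that change little, gave a factor of 0.84 to WT replicate 3 and 1.02 to 1.05 to the others. The factors apply to library sizes after the filter on low counts, which removed 7.51% of the counts of WT replicate 3, so its effective size was 0.777 of its total. CPM (counts scaled to the library size) are on the TMM scale below unless the library total is named, and levels per kb divide them by the length of the gene's main protein-coding transcript. Results are given with and without WT replicate 3 and VEGF/LysM replicate 3 wherever these 2 libraries decide them.

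No subunit differed between VEGF/LysM and WT beyond the test's threshold. At an adjusted p under 0.05 the quasi-likelihood test of edgeR called 0 of 96 members, with 0 calls among the 16300 genes tested (0.0%), and the smallest adjusted p of any member was 0.999. At an unadjusted p under 0.05 it found 0 members, beside 459 of all genes (2.82%), of which 142 were higher (0.871%) and 317 lower (1.94%). DESeq2 and limma-voom also called 0 genes, with 542 (3.33%) and 224 (1.37%) at an unadjusted p under 0.05, and 0 members among them. The 95% interval of the log2 fold change lay within 1 log2 unit of 0 on both sides for 78 of 83 nuclear and 9 of 13 mitochondrial members. For those 87 members a 2-fold difference lies outside the interval, whereas for the other 9 it does not. In a whole gland, fewer cells of a type and less RNA per cell cannot be told apart.

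The 13 mitochondrial members fell into 2 sets by level, and the sets follow the map of the mitochondrial genome. Outside one stretch, 7 genes stood at 1906 to 12574 CPM per kb. They are mt-Nd1, mt-Nd2, mt-Nd4, mt-Nd5 and mt-Nd6 of complex I, mt-Cytb, the cytochrome b of complex III, and mt-Co1, the catalytic subunit of complex IV. Within the stretch from base 7013 to base 10173 of the mitochondrial chromosome (GRCm38), 6 genes stood at 2.999 to 107 CPM per kb. In map order they are mt-Co2, mt-Atp8, mt-Atp6, mt-Co3, mt-Nd3 and mt-Nd4l, which encode core subunits of complexes IV, V and I. The 7 abundant genes held 99.6% of the counts of all 13, and the 6 low genes held 0.368%. Background on these genes is that long precursors of the mitochondrial strands are cut into the separate messengers, and mt-Co1, mt-Co2 and mt-Co3 serve the same enzyme.

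**Figure D1:**
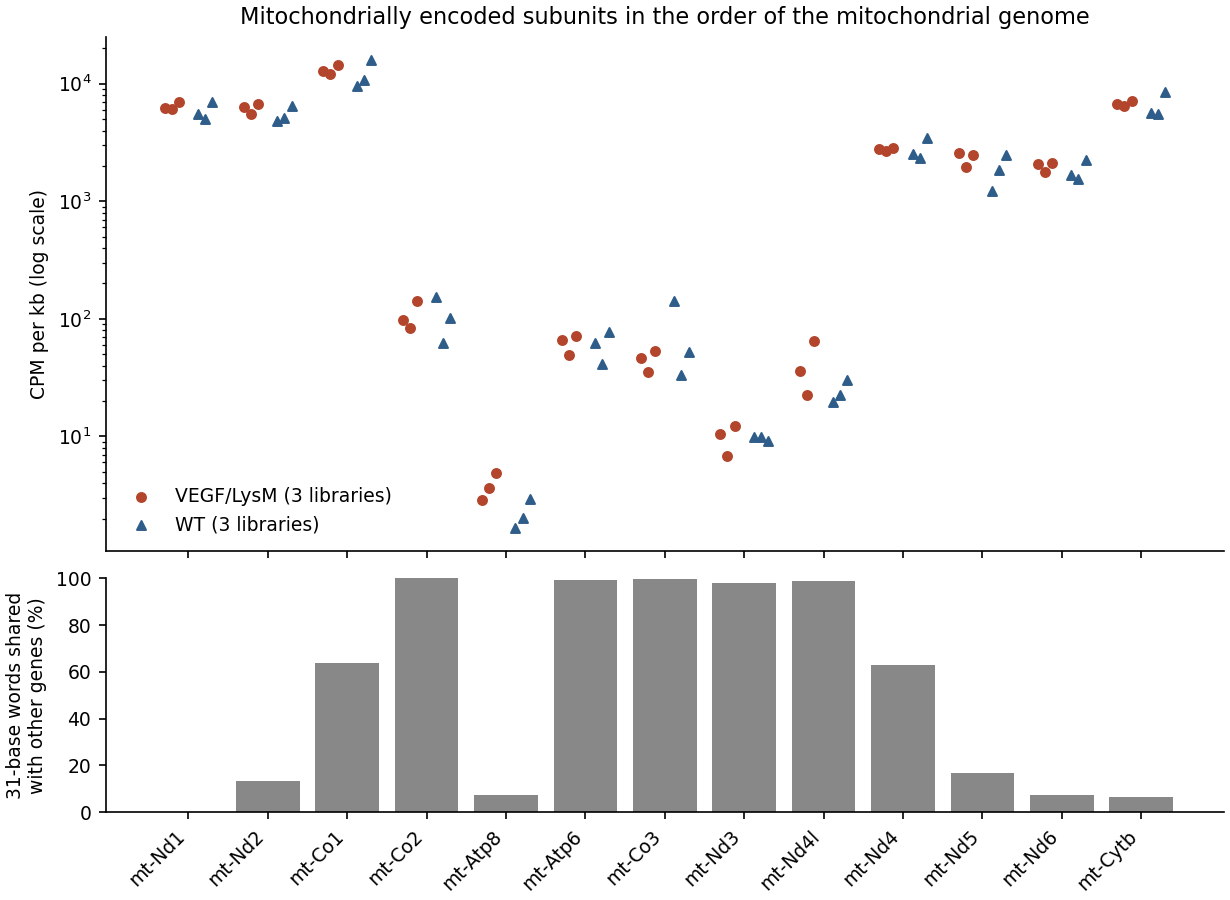
Top, level of each mitochondrially encoded subunit in CPM per kb on a log scale, in map order, with 1 point per library (circles, VEGF/LysM; triangles, WT). Bottom, percent of each transcript's 31-base words also found in transcripts of other genes. The 6 genes from mt-Co2 to mt-Nd4l sit at 2.999 to 107 CPM per kb on average, and the 7 others at 1906 to 12574.

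Those 6 genes have near-identical copies in the nuclear genome. All 31-base words of mt-Co2 (100% of 654) also occur in annotated transcripts of other genes, and the share was 99.5% for mt-Atp6, 99.9% for mt-Co3, 98.1% for mt-Nd3 and 98.9% for mt-Nd4l. The partners are unprocessed pseudogenes that lie side by side on chromosome 1, between bases 24612407 and 24615565 on the minus strand. Gm28661, for instance, matches mt-Co2 at 681 of 681 aligned bases. The exception among the 6 was mt-Atp8, with 7.47% of its words shared. Sharing alone does not separate the 2 sets, since mt-Co1 and mt-Nd4 are abundant and share 63.9% and 62.8% of their words. mt-Nd1 shares 0 of its words.

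The opening bases of a low and of an abundant gene are printed beside those of their nuclear copies. Over the whole aligned length 1 of 345 bases differs for mt-Nd3, with 98.1% of its words shared. For mt-Cytb 81 of 1142 bases differ, and 6.55% of its words are shared. Capitals mark the bases that differ within each pair: 1 of 90 between mt-Nd3 and Gm28438, and 5 of 90 between mt-Cytb and Gm11410. All are from GENCODE transcripts on GRCm38, read 5′ to 3′ on the named strand.
mt-Nd3, chrM:9459-9548, plus strand: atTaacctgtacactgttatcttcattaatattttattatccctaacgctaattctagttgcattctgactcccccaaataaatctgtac
Gm28438, chr1:24613030-24613119, minus strand: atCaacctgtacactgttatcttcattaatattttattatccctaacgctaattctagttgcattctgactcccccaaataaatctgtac
mt-Cytb, chrM:14146-14235, plus strand: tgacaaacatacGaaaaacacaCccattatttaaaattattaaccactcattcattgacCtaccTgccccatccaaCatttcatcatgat
Gm11410, chr4:80003990-80004079, plus strand: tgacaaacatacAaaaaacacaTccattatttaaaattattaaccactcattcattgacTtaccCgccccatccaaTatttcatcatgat

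For mt-Nd3, mt-Atp6 and mt-Co2 the table assigned counts to both partners, whereas Gm11410, the copy of mt-Cytb, had 0 counts in every library. mt-Nd3 had 3.63, 2.37 and 4.24 CPM in VEGF/LysM and 3.47, 3.45 and 3.19 CPM in WT. Its copy Gm28438 had 36.1, 36.8 and 43.3 CPM in VEGF/LysM and 42.9, 36.4 and 34.8 CPM in WT, so the pseudogene carried more counts than the gene in all 6 libraries. mt-Atp6, the proton channel subunit of ATP synthase, and its copy Gm10925 were nearly level, at 45.3, 33.6 and 48.9 against 45.1, 34.0 and 48.6 CPM in VEGF/LysM, and at 42.1, 28.1 and 52.4 against 36.5, 31.3 and 46.6 CPM in WT. Adding the copies did not bring the low genes near the others. mt-Co2 with Gm28661 came to 102, 88.2 and 138 CPM in VEGF/LysM and 145, 70.0 and 107 CPM in WT, while mt-Co1 alone stood at 18569 to 22244 CPM in VEGF/LysM and 14743 to 24537 CPM in WT. The sources used here do not say how the authors' counting treated reads that match both partners, and its part in the low levels was not tested. The levels of the 6 genes are therefore uncertain. Libraries were not stranded, so counts of the overlapping pairs mt-Atp8 and mt-Atp6, mt-Nd4l and mt-Nd4, and mt-Nd5 and mt-Nd6 cannot be told apart where they overlap. mt-Nd6 lies on the minus strand, and its counts cannot be separated from RNA of the plus strand over the same bases. The part of either strand in its level was not tested.

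As a share of all counts, the mitochondrial members were higher in every VEGF/LysM library than in any WT library. They took 5.14%, 4.66% and 5.55% of the counts in VEGF/LysM and 4.001%, 4.24% and 4.52% in WT. The means were 5.12% ± 0.441 in VEGF/LysM and 4.25% ± 0.261 in WT (SD, n = 3 each), a difference of 0.865 percentage points. With 3 libraries against 3, an exact two-sided permutation test cannot give a p below 0.1, so no test is given. This gap depends on how WT replicate 3 is scaled. On the TMM scale the summed levels were 50021, 45789.7 and 53776 CPM in VEGF/LysM and 38316, 40423 and 58222 CPM in WT, so WT replicate 3 was then the highest library and the groups overlapped. With the hepatocyte genes taken out of the denominator the difference was 0.731 percentage points and the groups also overlapped. In percent of the library total the difference was 0.999 without WT replicate 3, and 0.785 without that library and VEGF/LysM replicate 3. Leaving out libraries cannot make groups that are apart overlap, so only the size of the difference could change. Other markers also differed between the groups. The 8 erythrocyte genes summed to 179, 93.9 and 165 CPM of the library total in VEGF/LysM and 649, 220.1 and 321 CPM in WT, and 5 of 6 tested were lower in all VEGF/LysM libraries, where 2.41% of all genes tested were. All 10 cortex markers had a log2 fold change above 0 (median 0.24), and 1 of them was apart. The 14 lymphocyte genes summed to 124, 158 and 123 CPM in VEGF/LysM and 310.2, 191 and 1131 CPM in WT, and these groups did not overlap either. The part of liver, blood and cortex transcripts in the mitochondrial share was not tested.

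Fewer than all of the genes showed this singly. On the library-total scale, 6 of 13 mitochondrial members were higher in all VEGF/LysM libraries than in any WT library, and 0 were lower, against 4.12% and 1.63% of all genes tested. They were mt-Nd1, mt-Nd2, mt-Nd4, mt-Nd5, mt-Nd6 and mt-Atp8, and the other 7, mt-Co1 and mt-Cytb among them, overlapped. Of the 83 nuclear members tested, 1 was apart on that scale, Cox7b of complex IV, which was higher in VEGF/LysM. On the TMM scale 0 of 13 were apart, against 3.54% of all genes higher and 2.41% lower. Shared precursors mean that these genes are not independent of each other. The ribosomal RNAs of the same genome, mt-Rnr1 and mt-Rnr2, took 0.113%, 0.121% and 0.139% of counts in VEGF/LysM and 0.128%, 0.106% and 0.115% in WT, and their groups overlapped. The transfer RNAs, cut from the same precursors, took 0.0165%, 0.0148% and 0.0199% in VEGF/LysM and 0.0123%, 0.0147% and 0.0147% in WT, with every VEGF/LysM library above every WT library by a narrow margin. This holds for the library total. On the TMM scale 0 of 10 tested transfer RNA genes were apart, and their sum was not put on that scale.

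**Figure D2:**
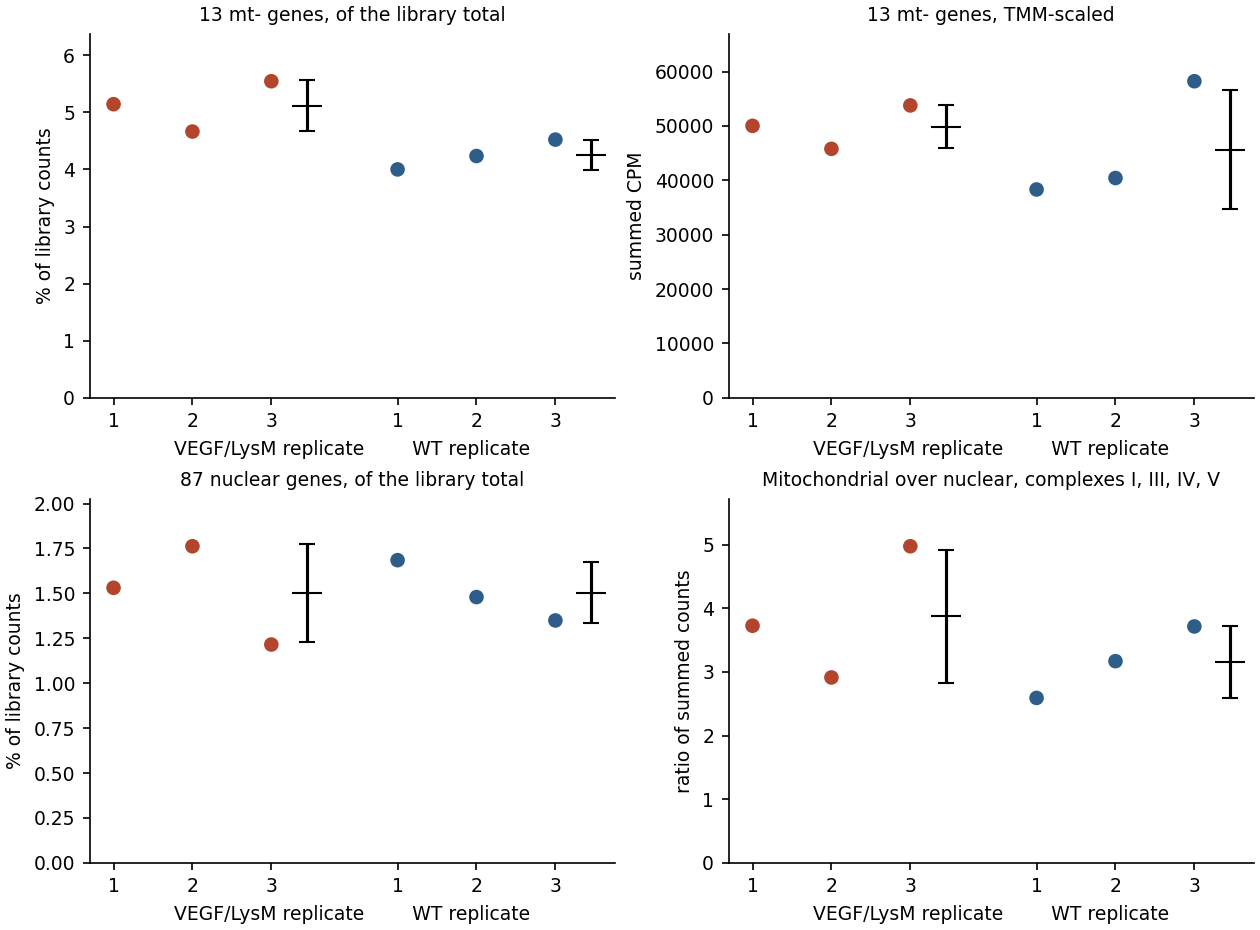
Points are libraries (VEGF/LysM left, WT right), with the mean ± SD of each group beside them. Panels show the summed share of the 13 mitochondrial genes in percent of the library total, the same sum in TMM-scaled CPM, the share of the 87 nuclear genes, and the ratio of mitochondrial to nuclear counts over complexes I, III, IV and V. The mitochondrial share separates the groups at 4.66% to 5.55% against 4.001% to 4.52%, whereas the other panels overlap.

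The balance between the genomes needs no scaling between libraries, because both sums come from the same library. Over complexes I, III, IV and V, the ratio of mitochondrial to nuclear counts was 3.73, 2.91 and 4.97 in VEGF/LysM and 2.59, 3.17 and 3.71 in WT. VEGF/LysM replicate 3 was the highest and WT replicate 1 the lowest, and the groups overlapped. On the log2 scale the difference was 0.27, against SDs of 0.39 in VEGF/LysM and 0.26 in WT, so it was smaller than the spread among the VEGF/LysM replicates and close to that among the WT replicates. It was 0.076 without VEGF/LysM replicate 3 and 0.14 without WT replicate 1. It was 0.46, with the groups apart, without VEGF/LysM replicate 2, and 0.40 without WT replicate 3. With VEGF/LysM replicate 3 and WT replicate 3 both left out it was 0.20.

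For complex I the ratio was 6.09, 4.48 and 7.76 in VEGF/LysM and 3.97, 5.06 and 5.82 in WT. For complex III, where mt-Cytb is the only mitochondrial subunit, it was 4.25, 3.42 and 5.75 in VEGF/LysM and 3.28, 3.66 and 4.33 in WT. For complex IV it was 7.43, 5.64 and 9.33 in VEGF/LysM and 4.61, 6.47 and 8.09 in WT. In each of these complexes VEGF/LysM replicate 3 was the highest and WT replicate 1 the lowest, and the log2 differences were 0.29, 0.23 and 0.23 for complexes I, III and IV. They were, without VEGF/LysM replicate 3, 0.096, 0.030 and 0.056, and with the mean of log2 CPM in place of summed counts the difference of complex IV was -0.034. Complex V was unlike the others in level, at 0.00872, 0.00586 and 0.0125 in VEGF/LysM and 0.00796, 0.00570 and 0.00840 in WT, because its mitochondrial members, mt-Atp6 and mt-Atp8, both lie in the low stretch.

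Between the groups, 12 of 13 mitochondrial members had a log2 fold change above 0, with a median of 0.12, beside 50.3% of all genes and a median of 0.0013. The intervals of all 13 included 0. The count was 8 of 13 without VEGF/LysM replicate 3 (median 0.052) and also without WT replicate 2 (median 0.034). It was 10 of 13 without WT replicate 3 (median 0.28), without WT replicate 1 (median 0.087) and without both WT replicate 3 and VEGF/LysM replicate 3 (median 0.24). It was 9 of 13 without VEGF/LysM replicate 1 (median 0.078). mt-Nd5, a proton-pumping subunit of complex I, had 4737, 3545 and 4548 CPM in VEGF/LysM and 2244, 3389.7 and 4500.3 CPM in WT. WT replicate 1 was the low library, and the log2 fold change was 0.34 ± 0.30 (SE). Without WT replicate 3 it was 0.60 (unadjusted p = 0.0366, edgeR adjusted p = 0.99996). mt-Nd2 of the same complex had 6557, 5756 and 6936 CPM in VEGF/LysM and 4998, 5276 and 6661 CPM in WT, a log2 fold change of 0.18 ± 0.22.

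mt-Co1, the most abundant member, made up 39.9%, 40.6% and 41.4% of the mitochondrial members' counts in VEGF/LysM and 38.5%, 40.8% and 42.1% in WT. mt-Cytb had 7730.0, 7334 and 8130.3 CPM in VEGF/LysM and 6452, 6336 and 9712 CPM in WT, and its log2 fold change was 0.044 ± 0.25.

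The largest fold changes of the mitochondrial set lay in the low stretch. That of mt-Co3 followed 1 library, and that of mt-Atp8 rested on few counts. mt-Co3, a core subunit of complex IV, had 36.7, 27.6 and 42.1 CPM in VEGF/LysM and 110.3, 26.3 and 40.7 CPM in WT, for a log2 fold change of -0.74 ± 0.51. Without WT replicate 2 it was -1.09 (unadjusted p = 0.0495, edgeR adjusted p = 0.656), and without WT replicate 1 it was 0.086. WT replicate 1 alone was high, and the copy Gm28437 showed no such peak, with 37.8 CPM in that library. mt-Nd4l of complex I had 10.7, 6.62 and 19.2 CPM in VEGF/LysM and 5.86, 6.65 and 8.99 CPM in WT, for 0.76 ± 0.41. It was 1.04 without VEGF/LysM replicate 2 (unadjusted p = 0.0287) and without WT replicate 3 it was 0.95 (unadjusted p = 0.0451), with edgeR adjusted p of 0.999 and 0.99996. The copy of mt-Nd4l, Gm10222, had 15.2, 14.2 and 13.4 CPM in VEGF/LysM and 7.68, 10.7 and 10.1 CPM in WT. Gene and copy together came to 25.9, 20.8 and 32.5 CPM in VEGF/LysM and 13.5, 17.4 and 19.1 CPM in WT. Neither overlapped between the groups, where 3.54% of all genes tested were higher without overlap. For mt-Co2, mt-Co3, mt-Atp6 and mt-Nd3 the sums with their copies overlapped. mt-Atp8 of ATP synthase had 10, 14 and 17 counts in VEGF/LysM and 6, 8 and 8 counts in WT, for 0.80 ± 0.44.

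The nuclear subunits were expressed at more even levels. Of the 83 tested, 67 lay between 50 and 500 CPM per kb, with a median of 146. Cox6a1 was the highest at 921 CPM per kb, Atp5b followed at 866, and Ndufb2 was the lowest at 2.42. The last rank depends on the transcript length of 4371 bases used for Ndufb2. Its mean of 10.6 CPM was above those of Cox6b2 (4.25) and Cox4i2 (2.99). Medians by complex were 97.7 CPM per kb for complex I, 177 for complex II, 215 for complex III, 161 for complex IV and 193 for complex V. The highest library exceeded the lowest by a median of 1.55-fold, beside 1.51-fold for the 8470 genes tested with a mean of at least 20 CPM. Ndufc2 of complex I varied least, at 1.22-fold, and Ndufa12 varied most, at 3.85-fold. Of the 87 nuclear members, 8 share more than 50% of their 31-base words with other genes, mostly processed pseudogenes, and their counts are uncertain. They include Atp5g2 (87.7%), Atp5l (85.4%), Atp5h (60.3%), Cox7c (55.7%) and Ndufs3 (55.0%).

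Taken over the groups, 68 of 83 nuclear members had a log2 fold change below 0 and 15 above, with a median of -0.098, beside 49.7% of all genes below 0 and a median of 0.0013. The size and the direction of this tilt changed with single libraries. Without VEGF/LysM replicate 3, 33 of 83 were below 0 and 50 above, and the median was 0.011. Without WT replicate 1, 51 were below 0 (median -0.031). Without VEGF/LysM replicate 2, 80 were below 0 (median -0.26), and without WT replicate 2, 76 were (median -0.19). With VEGF/LysM replicate 3 and WT replicate 3 both left out, 25 were below 0 and 58 above, and the median was 0.045. With library sizes alone as the scaling, 48 were below and 35 above. By complex the medians were -0.093, -0.20, -0.12, -0.054 and -0.11 for complexes I to V, with 29 of 36, 4 of 4, 8 of 9, 11 of 17 and 16 of 17 members below 0. As a share of the library total the nuclear members did not separate the groups, at 1.53%, 1.76% and 1.22% in VEGF/LysM and 1.68%, 1.48% and 1.35% in WT.

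Nuclear subunits of all 5 complexes moved together from library to library. VEGF/LysM replicate 3 held the lowest TMM-scaled value for 63 of 83 nuclear members (75.9%, against 15.9% of all genes tested) and the highest for 0. It was the lowest library for 28 of 36 members of complex I, 4 of 4 of complex II, 8 of 9 of complex III, 11 of 17 of complex IV and 12 of 17 of complex V. The highest library was VEGF/LysM replicate 2 for 25, WT replicate 1 for 29 and WT replicate 3 for 28. On the library-total scale, VEGF/LysM replicate 3 and WT replicate 3 were lowest for 39 members each (47.0%), where these libraries were lowest for 8.09% and 58.0% of all genes tested. The mitochondrial members did not follow: VEGF/LysM replicate 3 was lowest for 0 of 13 and highest for 4 on the TMM scale and 10 on the library-total scale.

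**Figure D3:**
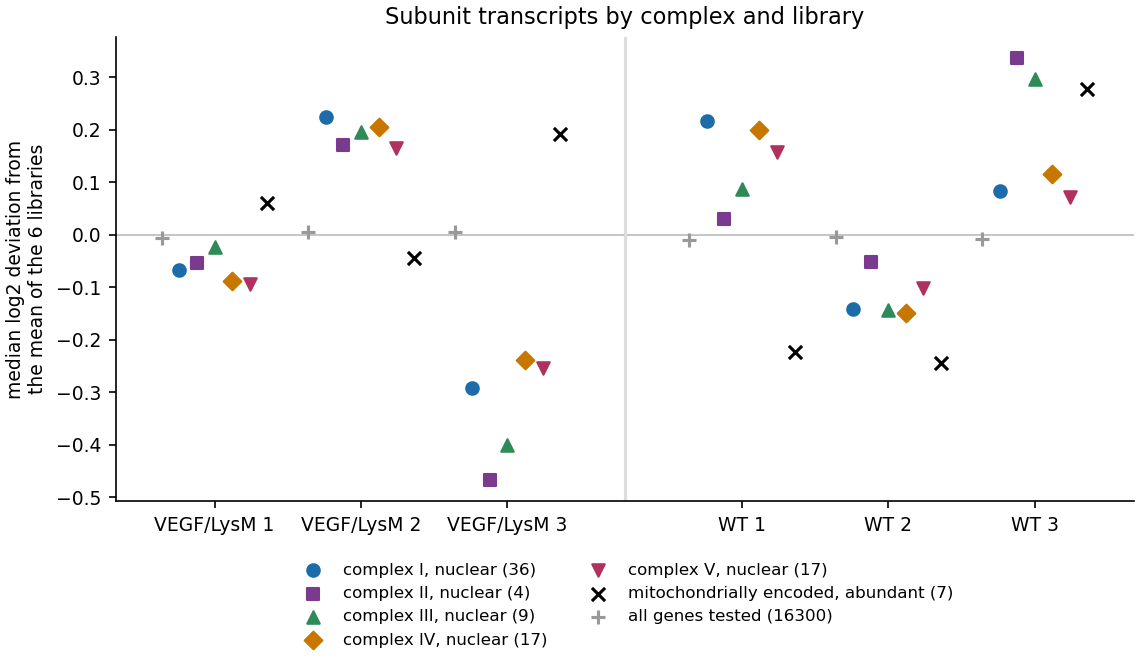
Median log2 deviation of subunit transcripts from the mean of the 6 libraries, by library (VEGF/LysM left, WT right) and complex, with a pseudocount of 0.5 CPM. Nuclear members of every complex fall to between -0.47 and -0.24 in VEGF/LysM replicate 3, while the 7 abundant mitochondrial members stand at 0.19 there and all genes tested stay near 0.

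Markers and pathway lists also differed in these libraries. VEGF/LysM replicate 3 held the highest summed level of 8 adrenal medulla genes, 9839.9 CPM of the library total, against 6011 and 6135 in the other VEGF/LysM libraries and 3027 to 7384 in WT. Its cortex markers, at 52091 CPM, lay within the range of the others. The part of either in the low nuclear subunit levels was not tested. Deviations of the nuclear members also went with transcript length, with a sign that changed from library to library. Over the 83 genes, which share a library and are not replicates, Spearman's rho was -0.28 in VEGF/LysM replicate 3, and over the 6 libraries it ran from -0.34 to 0.34. Over 14277 protein-coding genes it was 0.15 in VEGF/LysM replicate 3 and ran from -0.40 to 0.23.

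Promoter sequences of the nuclear members carry motifs of the factors known to drive respiratory genes. In the RefSeq promoter table (GRCm38.p6, 250 bases before to 50 after each start), 67 of 86 nuclear symbols matched, with 72 windows. The NRF1 motif, searched as GCGCANGCG, was present on either strand in 29.2% of them, against 6.25% of all 32851 windows. The GABPA motif CCGGAAGT was in 6.94% against 3.89%, the YY1 motif AAGATGGCG in 9.72% against 1.4%, and at least 1 of the 3 in 41.7% against 10.6%. Matches of different motifs overlapped in 0 of the 72 windows. A match is a string of letters and not a measured site, and no binding was measured here.

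The promoters below are shown because each holds 2 of the 3 motifs. Uqcr11 encodes a small subunit of complex III, Atp5h a stalk subunit of ATP synthase, and Ndufs6 an accessory subunit of complex I. Capitals mark the matches in either orientation, which are GABPA and NRF1 in Uqcr11, NRF1 and GABPA in Atp5h, and NRF1 and YY1 in Ndufs6.
Uqcr11, chr10:80406772-80407071, minus strand: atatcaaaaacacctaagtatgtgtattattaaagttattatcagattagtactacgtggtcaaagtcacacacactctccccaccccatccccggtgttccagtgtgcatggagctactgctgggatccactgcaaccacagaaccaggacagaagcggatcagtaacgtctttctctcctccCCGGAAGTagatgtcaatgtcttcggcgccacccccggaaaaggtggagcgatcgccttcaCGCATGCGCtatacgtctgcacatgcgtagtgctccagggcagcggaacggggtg
Atp5h, chr11:115419870-115420169, minus strand: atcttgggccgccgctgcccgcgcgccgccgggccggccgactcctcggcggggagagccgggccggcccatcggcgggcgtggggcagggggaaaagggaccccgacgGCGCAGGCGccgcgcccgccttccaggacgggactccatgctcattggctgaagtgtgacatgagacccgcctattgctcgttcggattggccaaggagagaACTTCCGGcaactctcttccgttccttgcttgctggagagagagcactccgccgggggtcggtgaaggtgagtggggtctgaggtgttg
Ndufs6, chr13:73328433-73328732, minus strand: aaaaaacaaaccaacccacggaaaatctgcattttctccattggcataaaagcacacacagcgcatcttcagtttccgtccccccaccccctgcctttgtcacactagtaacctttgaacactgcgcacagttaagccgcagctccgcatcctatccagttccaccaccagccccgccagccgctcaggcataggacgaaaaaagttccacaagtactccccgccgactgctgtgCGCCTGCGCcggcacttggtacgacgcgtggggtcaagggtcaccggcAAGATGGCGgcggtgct

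Uqcr11 had 135, 173 and 103 CPM in VEGF/LysM and 168, 123 and 138 CPM in WT. Atp5h had 164, 201 and 147 CPM in VEGF/LysM and 186, 161 and 181 CPM in WT, and its counts are uncertain because of its pseudogenes. Ndufs6 had 51.5, 66.1 and 47.7 CPM in VEGF/LysM and 65.2, 44.1 and 58.4 CPM in WT. VEGF/LysM replicate 2 was the highest library for all 3 genes, and the groups overlapped in each.

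Complex I, the NADH dehydrogenase, has the most nuclear subunits of the chain. Among the accessory subunits with high levels per kb was Ndufa6 (236). Ndufa6 had 134, 153 and 121 CPM in VEGF/LysM and 164, 124 and 139 CPM in WT, for a log2 fold change of -0.064 ± 0.16, and the groups overlapped. Ndufa13, an accessory subunit also known as GRIM-19, had the most negative value among the nuclear subunits of this complex. It stood at 83.4, 103 and 66.1 CPM in VEGF/LysM and 119.9, 82.4 and 110.0 CPM in WT, for -0.31 ± 0.21.

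Ndufb4 had the most positive value of the nuclear subunits of complex I, with 80.0, 102 and 87.04 CPM in VEGF/LysM and 87.5, 80.6 and 60.5 CPM in WT. WT replicate 3 was the low library, and the log2 fold change was 0.23 ± 0.18. Ndufc1, another accessory subunit, had 69.8, 88.3 and 66.1 CPM in VEGF/LysM and 80.4, 61.6 and 59.9 CPM in WT, for 0.15 ± 0.18. Ndufa12 spread more widely over the libraries than the other nuclear subunits, with 20.1, 59.4 and 15.4 CPM in VEGF/LysM and 27.1, 17.7 and 41.2 CPM in WT. It was singled out after its values were seen, as the nuclear member with the widest range. Its closest copy, the pseudogene Gm15920, had 40.5, 31.4 and 27.6 CPM in VEGF/LysM and 39.1, 35.9 and 28.7 CPM in WT, and the part of reads that match both genes was not tested.

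Complex II, the succinate dehydrogenase, has nuclear subunits only, and all 4 were lowest in VEGF/LysM replicate 3. Sdha, the flavoprotein that oxidises succinate (chromosome 13, 74322254 to 74350280, minus strand), had 896, 914 and 533 CPM in VEGF/LysM and 701, 794 and 956 CPM in WT, for -0.065 ± 0.26. Sdhb, the iron-sulphur subunit, had 247, 292 and 192 CPM in VEGF/LysM and 297, 248 and 282 CPM in WT, for -0.18 ± 0.19. The membrane anchors gave -0.28 ± 0.21 (Sdhc) and -0.22 ± 0.22 (Sdhd). Summed over the complex, levels were 1462, 1578 and 972 CPM in VEGF/LysM and 1344, 1361 and 1690.0 CPM in WT, and the groups overlapped. Without VEGF/LysM replicate 3 the median log2 fold change of the 4 subunits was -0.067, and without that library and WT replicate 3 it was 0.066.

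In complex III, which passes electrons from ubiquinol to cytochrome c, the highest levels per kb were those of the small subunits Uqcr10 (338) and Uqcr11 (315). Uqcr10 had 142, 182 and 136 CPM in VEGF/LysM and 175, 131 and 114 CPM in WT, and was the 1 nuclear member of this complex with a log2 fold change above 0, 0.13 ± 0.21. Cyc1, the cytochrome c1 that carries the electrons, had 277, 316 and 209 CPM in VEGF/LysM and 273, 261 and 339 CPM in WT, for -0.12 ± 0.20. Uqcrfs1, the Rieske iron-sulphur protein, had 254, 288 and 189 CPM in VEGF/LysM and 275, 235 and 341 CPM in WT, for -0.22 ± 0.22. WT replicate 3 was the highest library for Cyc1 and Uqcrfs1 and the lowest for Uqcr10.

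Complex IV, the cytochrome c oxidase, is the complex with most tissue-specific isoforms, and the widely expressed form led each pair. Cox6a1 had 486, 639 and 377 CPM in VEGF/LysM and 621, 467 and 567 CPM in WT, for -0.14 ± 0.24. Cox6a2, the heart and muscle form, stayed at 0.235 to 0.528 CPM in VEGF/LysM and 0.149 to 0.464 CPM in WT. Cox4i1 had 458, 572 and 413 CPM in VEGF/LysM and 616, 425 and 470.0 CPM in WT, for -0.066 ± 0.21, and made up 99.1% to 99.6% of its pair's level per kb. Cox4i2, known from lung, stood at 2.41 to 4.05 CPM in VEGF/LysM and 1.93 to 3.92 CPM in WT. Cox6b1 made up 97.0% to 98.3% of its pair with Cox6b2, a testis form. Cox7b2 and Cox8c, also testis forms, had 0 counts.

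Ndufa4, once counted with complex I and now placed in complex IV, had 199.7, 251 and 220.1 CPM in VEGF/LysM and 229.7, 193 and 235 CPM in WT. Its relative Ndufa4l2, known as a hypoxia-responsive gene, had 29.7, 25.2 and 39.8 CPM in VEGF/LysM and 45.8, 28.6 and 19.6 CPM in WT, for 0.0089 ± 0.33. Cox7a2l, known for its role in joining complexes into supercomplexes, was the 1 member whose groups did not overlap on the TMM scale, where 5.95% of all genes tested were apart in either direction. It had 139.7, 136 and 125 CPM in VEGF/LysM and 168, 141 and 143 CPM in WT, a log2 fold change of -0.17 ± 0.13. The gap was that between VEGF/LysM replicate 1 and WT replicate 2, and the groups overlapped on the library-total scale.

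Cox7a1 and Cox8b, forms of heart, skeletal muscle and brown fat, varied more than 3-fold between libraries. Cox7a1 (chromosome 7, 30184144 to 30186078, plus strand) had 25.6, 24.3 and 8.53 CPM in VEGF/LysM and 13.99, 13.5 and 26.4 CPM in WT. Cox8b (chromosome 7, 140898945 to 140900446, minus strand) had 52.2, 54.0 and 24.4 CPM in VEGF/LysM and 24.5, 28.2 and 77.2 CPM in WT. VEGF/LysM replicates 1 and 2 and WT replicate 3 were high for both genes and the other libraries were low, so the groups overlapped, with log2 fold changes of 0.12 ± 0.46 and 0.012 ± 0.50.

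Ucp1, the uncoupling protein that marks brown fat, and singled out after its values were seen, was high in the same libraries, at 150.5, 167 and 11.7 CPM in VEGF/LysM and 19.5, 49.1 and 364 CPM in WT. Not every brown adipocyte gene had this order. Dio2, which activates thyroid hormone, had 8.68, 23.7 and 32.3 CPM in VEGF/LysM and 14.6, 11.96 and 120.0 CPM in WT, and Ppargc1a was lower in VEGF/LysM replicate 1 than in WT replicate 2. The 9 brown adipocyte genes, all detected in every library and including Cox7a1 and Cox8b themselves, summed to 118 to 425 CPM of the library total in VEGF/LysM and 151 to 660.4 CPM in WT. Of 14 striated muscle genes, 8 had counts in all libraries, and they summed to 8.80 to 16.3 CPM in VEGF/LysM and 11.6 to 16.9 CPM in WT. The part of brown fat in the levels of these isoforms was not tested. Without WT replicate 3 and VEGF/LysM replicate 3, Cox7a1 had a log2 fold change of 0.87 (unadjusted p = 0.00117) and Cox8b of 1.02 (unadjusted p = 0.000272), but the edgeR p adjusted over all genes was 0.9997 for both. That fit sets the VEGF/LysM libraries where both genes were high against the WT libraries where both were low. Its outcome follows from the values already given, so these p-values are no evidence of a group difference. The widely expressed Cox7a2 and Cox8a did not share this order, with log2 fold changes of -6.2e-05 ± 0.15 and -0.093 ± 0.20. Cox8b took 13.1% to 20.7% of the level per kb of its family in VEGF/LysM and 9.59% to 25.0% in WT.

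**Figure D4:**
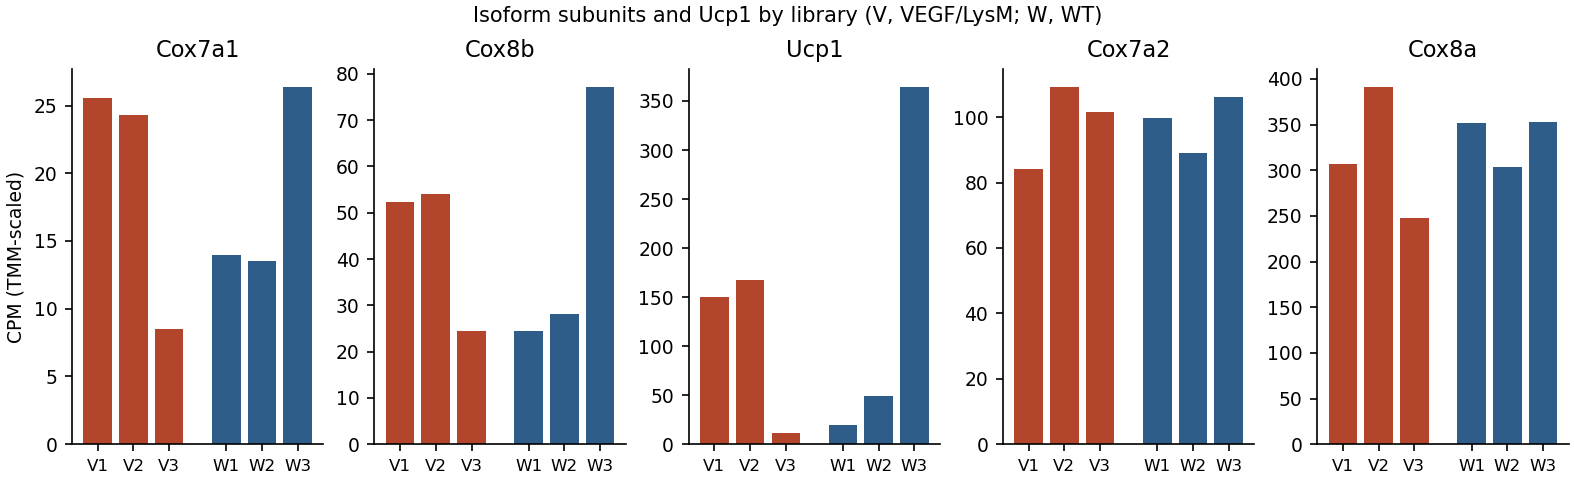
TMM-scaled CPM of Cox7a1, Cox8b, Ucp1, Cox7a2 and Cox8a in each library (V, VEGF/LysM replicates 1 to 3; W, WT replicates 1 to 3), on separate linear axes that start at 0. Cox7a1, Cox8b and Ucp1 are high in V1, V2 and W3, and Cox7a2 and Cox8a are not.

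Complex V, the ATP synthase, held the most abundant nuclear transcripts in CPM. Atp5b, the catalytic beta subunit (chromosome 10, 128083273 to 128090391, plus strand), had 1784, 1846 and 1136 CPM in VEGF/LysM and 1444, 1602 and 2148 CPM in WT, for -0.12 ± 0.27. Atp5a1, the alpha subunit, had 1324, 1415 and 891 CPM in VEGF/LysM and 1263, 1243 and 1600.0 CPM in WT, for -0.18 ± 0.24. VEGF/LysM replicate 3 was the lowest and WT replicate 3 the highest library for both. Atp5d, the delta subunit of the central stalk, had 251, 317 and 239 CPM in VEGF/LysM and 332, 262 and 382 CPM in WT, for -0.27 ± 0.20. The c-ring that turns in the membrane is encoded by Atp5g1, Atp5g2 and Atp5g3, and Atp5g3 made up 70.3% to 72.0% of their level per kb over the 6 libraries. This share depends on the transcript lengths used, 723 bases for Atp5g3, 731 for Atp5g2 and 4715 for Atp5g1. In the same order, their mean levels were 360, 135 and 86.8 CPM. Atp5s, placed in this complex by its symbol, was the lowest of the tested nuclear members placed there, at 7.40 CPM per kb.

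**Figure D5:**
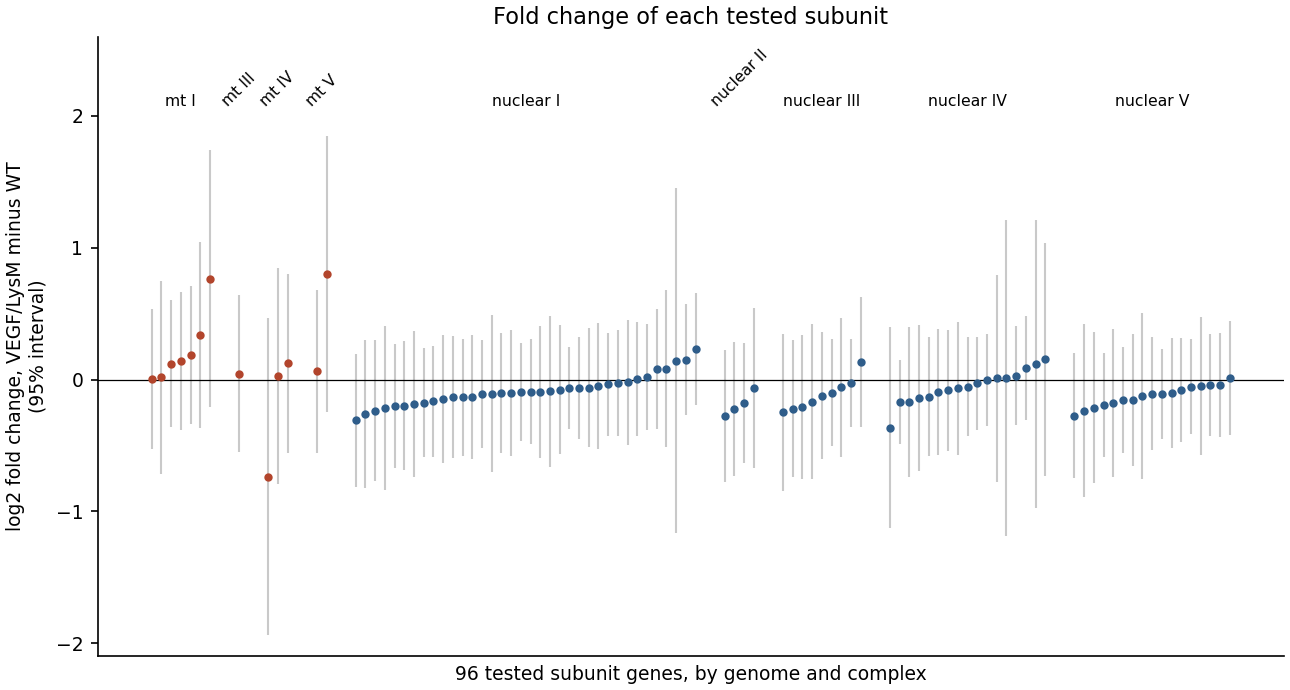
Log2 fold change, VEGF/LysM minus WT, of the 96 tested subunits with 95% intervals, ordered within mitochondrial (mt) and nuclear groups by complex. Most nuclear points lie below 0 (68 of 83) and most mitochondrial points above (12 of 13), and every interval includes 0.

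Among genes around the respiratory chain, edgeR called 0 genes of each list below. Of 18 genes of the tricarboxylic acid cycle, which supplies NADH and succinate, 14 were below 0 and 4 above (median -0.073). Their summed level was 5296, 5553 and 3379.5 CPM of the library total in VEGF/LysM and 4241, 4946 and 4525 CPM in WT, lowest in VEGF/LysM replicate 3 like the subunits. Of 77 tested proteins of the mitochondrial ribosome, which translates the 13 mitochondrial messengers, 60 were below 0 and 17 above (median -0.066). Their summed level was 3613, 4015 and 3312 CPM of the library total in VEGF/LysM and 4403, 3680 and 2631 CPM in WT. WT replicate 3 was lowest here, and on that scale it was lowest for 58.0% of all genes tested. These sums were not put on the TMM scale.

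Of the assembly factors of complex IV, 11 of 22 were below 0 (median 0.013), for complexes II, III and V 6 of 12 (median 0.034), and for complex I 13 of 19 (median -0.072). Genes that copy and transcribe mitochondrial DNA were split evenly, 11 of 22 on either side (median 0.018). On the TMM scale 3 of the 22, Tfam among them, were lower in all VEGF/LysM libraries, and 0 were higher. The shares of all genes tested were 2.41% and 3.54%. Tfam, which packages that DNA, had 45.3, 48.1 and 40.1 CPM in VEGF/LysM and 49.2, 48.5 and 50.05 CPM in WT, for -0.15 ± 0.13. Among 12 tested nuclear regulators 8 were below 0 (median -0.090). Ppargc1a, a coactivator known to raise mitochondrial gene expression, had 5.22, 12.6 and 6.06 CPM in VEGF/LysM and 3.24, 8.19 and 40.7 CPM in WT. WT replicate 3 was high, and the log2 fold change was -1.12 ± 0.88.

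Of 18 tested electron carriers and enzymes that feed the chain, 13 were below 0 (median -0.091). Cycs, the cytochrome c between complexes III and IV, had 105, 128 and 87.3 CPM in VEGF/LysM and 85.5, 96.4 and 151 CPM in WT, for -0.054 ± 0.25. Of 8 tested genes of the mitochondrial steroid pathway, which uses its own electron chain, 7 were above 0 and 1 below (median 0.25). Their summed level was 30973, 24291 and 27581 CPM of the library total in VEGF/LysM and 25654, 24376 and 14584 CPM in WT, with WT replicate 3 lowest. Cyp11b1, the enzyme that makes corticosterone in mitochondria, had 6555, 5348 and 5499 CPM in VEGF/LysM and 4133, 5177 and 3499.7 CPM in WT. Its groups did not overlap, where 3.54% of all genes tested were higher without overlap, and the log2 fold change was 0.44 ± 0.23 (edgeR adjusted p = 0.999).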

How the data were processed

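Bulk RNA was measured in 3 VEGF/LysM and 3 WT samples of adrenal gland. Per the labels' protocols, RNA was extracted with a column kit, samples of low RNA integrity were dropped, and libraries followed a Smart-seq2 type protocol, which keeps no strand. The authors deposited whole-number counts per Ensembl gene. The submitters' processing notes name kallisto, DESeq2 1.36.0 and mm10 without their roles, and the annotation used is not stated in them. Totals of 16476879 to 18671950 counts per library set the precision, and intervals from counts cover counting error only.

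Here the deposited counts were filtered (filterByExpr of edgeR, minimum count 10 and total 15), scaled by TMM and fitted with the quasi-likelihood test of edgeR 4.0.16 in R 4.3.3 on group alone, with Benjamini-Hochberg adjustment over 16300 genes. The SE was taken from the coefficient and F. Fits were tested on simulated data. Symbols, transcript lengths (the longest principal protein-coding transcript) and 31-base words came from GENCODE on GRCm38, and promoters from RefSeq. Deviations used a pseudocount of 0.5 CPM. Alternatives were other scalings and filters, DESeq2 1.42.0, limma 3.58.1 with voom, a replicate block, other denominators and leaving out libraries.

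Members and lists were chosen with earlier results of these data known. Genes were named by rule: all 13 mitochondrial members, the 2 highest nuclear levels per kb of each complex, complex II, isoform families, Cyc1, Uqcrfs1, and the 5 smallest p in each direction. Others, such as Ndufa12, Ndufc2, Ndufb2, Ndufs6, Atp5h and Atp5s, and the genes of neighbouring pathways, were named after their values were seen. A member named by the rule is not reported here.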

Additional observations from a re-analysis of the deposited data

How the results depend on the processing

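The count of called members was 0 under every alternative run, and that of all genes was 0 under every alternative except the fit without WT replicate 3, where it was 1, a gene that is not a member (range 0 to 1 over the 6 fits that leave out 1 library). The difference in mitochondrial share was 0.421 percentage points on TMM effective library sizes, and the groups overlapped there. It was 0.651 to 1.09 without 1 library. Groups that are apart stay apart when a library is left out, so only the size of the difference could change. The median of the nuclear members turned to 0.011 without VEGF/LysM replicate 3, 0.045 without it and WT replicate 3, and 0.014 with limma-voom sample weights. The labels do not say whether the replicate numbers pair the samples. In their deviations from the group means, same-numbered samples correlated at 0.064, -0.014 and 0.25. VEGF/LysM replicate 3 and WT replicate 3 correlated best with each other, whereas VEGF/LysM replicate 1 correlated best with WT replicate 2 (0.32). Deviations from means of 3 samples cannot decide whether samples were paired. A replicate block called 0 genes, with 270 at an unadjusted p under 0.05 against 459 without it, and 0 members. A test without the filter on low counts found 1098 of 28809 genes at an unadjusted p under 0.05. The log2 fold change of named genes turned sign with limma-voom with sample weights for mt-Nd3 (-0.12), Ndufa6 (0.029), Sdha (0.078), Uqcr11 (0.058), Cox4i1 (0.033), Atp5b (0.061), Cox6b1 (0.0036), Cox7a2 (0.038), Cox8a (0.0082), Ndufa4l2 (-0.11) and Cyc1 (0.031). It turned with library-size scaling for Ndufa6 (0.0039), Sdha (0.022), Uqcr11 (0.0061) and Cox7a2 (0.079). It turned with DESeq2 size factors for mt-Nd4 (-0.0046) and Ndufa4l2 (-0.0014). It turned with the DESeq2 Wald test for mt-Nd4 (-0.0046) and Ndufa4l2 (-0.0016). It turned with the replicate block for mt-Nd3 (-0.022). It turned with limma-voom for mt-Nd3 (-0.038). It turned with upper-quartile scaling for Cox7a2 (0.031). Leaving out 1 library, or WT replicate 3 and VEGF/LysM replicate 3 together, turned the sign for the following genes, with the lowest and highest value in parentheses: mt-Nd3 (-0.20 to 0.20), mt-Nd4 (-0.10 to 0.20), mt-Cytb (-0.061 to 0.27), mt-Co1 (-0.016 to 0.37), mt-Co2 (-0.25 to 0.40), mt-Co3 (-1.09 to 0.086), mt-Atp6 (-0.15 to 0.28), Ndufa6 (-0.17 to 0.053), Sdha (-0.21 to 0.28), Uqcr10 (-0.029 to 0.33). It also turned for Uqcr11 (-0.28 to 0.11), Cox6a1 (-0.37 to 0.054), Cox4i1 (-0.23 to 0.11), Atp5b (-0.26 to 0.26), Atp5a1 (-0.32 to 0.13), Sdhc (-0.44 to 0.024), Sdhd (-0.38 to 0.11), Cox4i2 (-0.086 to 0.46), Cox6b1 (-0.30 to 0.037), Cox7a1 (-0.14 to 0.87). It turned as well for Cox7a2 (-0.10 to 0.083), Cox7b (-0.015 to 0.25), Cox8a (-0.30 to 0.094), Cox8b (-0.27 to 1.02), Ndufa4 (-0.079 to 0.10), Ndufa4l2 (-0.43 to 0.39), Cyc1 (-0.28 to 0.16), Uqcrfs1 (-0.38 to 0.092) and Ndufc1 (-0.0049 to 0.30). Leaving out both libraries turned 16 of them. None of these fold changes passed the threshold, and the cause of each turn was not tested. Adding the chromosome 1 copies, leaving out the low stretch, and leaving out Cox7a1 and Cox8b were chosen after seeing the data, and left the difference in mitochondrial share at 0.868 and 0.865 percentage points and the log2 ratio at 0.27, 0.28 and 0.28. The mean of log2 CPM in place of summed counts gave a complex IV log2 ratio of -0.034, which weights mt-Co2 and mt-Co3 as much as mt-Co1. Low counts limit mt-Atp8 (6 to 17 per library) and Cox6a2.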
